A study of Homo sapiens with 12 samples.

Results

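The genes described here were 34 target genes and feedback regulators of the tumour suppressor p53, measured by mRNA sequencing in HK-2 cells under 4 conditions. They were chosen by matching a list of gene symbols to the gene names of the count table, which held 58735 genes in all, and the rule itself used no measured value. HK-2 is an immortalised line of human renal proximal tubular epithelial cells that carries papillomavirus oncogenes, whose products act on p53 and on RB. The control group was labelled with water as its treatment. The other groups received the iodinated contrast agent iohexol at 75 mg I/mL, the DNA-crosslinking platinum compound cisplatin at 5 μM, or the antibiotic vancomycin at 4 mM, each for 48 h. Each group had 3 samples, and every sample was the same established line, so that the p-values measure the spread between these samples only, which may be technical.

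p53 is a transcription factor that is kept low by the ubiquitin ligase MDM2 and its partner MDM4 and is stabilised after DNA damage and other stress. It binds a response element and activates genes of cell cycle arrest, apoptosis, DNA repair and metabolism, among them MDM2 itself, which closes a feedback loop. In cells that carry papillomavirus oncogenes, one viral product directs p53 to degradation through the ubiquitin ligase UBE3A, and another binds RB. Viral transcripts were not analysed here.

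The total count was between 14057282 and 18177109 per sample, at which 3 counts corresponded to 0.177 to 0.218 CPM (reads of a gene per 1000000 counted, scaled by TMM factors). Control replicate 1 and iohexol replicate 3 stood furthest from the other samples of their own groups in the counts, and their deviations from the group means had a correlation of 0.294 over 17073 genes. PHLDA3, CDKN1A, PLK3, TP53I3 and FDXR had the lowest value of the group in both of these samples. Of 10 proximal tubule markers, 7 exceeded 3 counts in a sample of each group, but the uptake receptor LRP2 and the anion transporters SLC22A6 and SLC22A8 were at or near 0. The summed level of the 10 markers, most of it from GGT1 and MME, spanned 231 to 274 CPM (control), 237 to 269 (iohexol), 193 to 211 (cisplatin) and 451 to 478 (vancomycin). The 6 epithelial markers summed to 1091 to 1237, 1160 to 1418, 1360 to 1414 and 1654 to 1713 CPM, respectively. These sums held opposite changes. With cisplatin the mean rose for KRT8 (494 to 844 CPM), KRT18 (174 to 326) and KRT19 (43.7 to 54.5). It fell for EPCAM (101 to 35.4) and PAX8 (372 to 131), and CDH1 had at most 8 counts in any sample. The 10 markers of other cell types summed to 27.4 to 36.1, 27.1 to 30.1, 49.2 to 54.4 and 41.5 to 45.2 CPM, most of it the collagen gene COL1A1, while the leukocyte marker PTPRC was at most 0.338 CPM. The part of these shifts in the values of the p53 target genes was not tested. In bulk RNA, less RNA of a gene in every cell and fewer cells that express it cannot be told apart.

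The DNA around annotated start sites was read first for the p53 response element, and DNA further away was not read. A gene without a match could still hold an element elsewhere. RefSeq promoter windows on GRCh38.p14, each from 250 bases before to 50 bases after an annotated start, were found for 26 of the 34 genes. Each window was searched on both strands for the p53 response element, 2 decamers of 10 bases without a spacer, with the core C and G of each decamer intact and at most 3 mismatches in 20 bases. A match was found for 7 of 26 genes, beside 373 of all 27305 genes with a window (1.37%). The 7 matches are shown because they are the sequences that the search found beside these genes. Each is written 5′ to 3′ on the strand of its gene, with the matched 20 bases in capitals.
DDB2, chr11:47214964-47214993, plus strand: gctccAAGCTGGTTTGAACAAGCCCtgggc
FAS, chr10:88991304-88991333, plus strand: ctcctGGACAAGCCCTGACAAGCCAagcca
MDM2, chr12:68808918-68808947, plus strand: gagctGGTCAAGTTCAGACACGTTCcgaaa
AEN, chr15:88621301-88621330, plus strand: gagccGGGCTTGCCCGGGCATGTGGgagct
SESN1, chr6:109009013-109009042, minus strand: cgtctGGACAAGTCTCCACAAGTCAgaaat
FDXR, chr17:74872991-74873020, minus strand: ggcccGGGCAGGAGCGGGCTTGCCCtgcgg
GDF15, chr19:18386181-18386207, plus strand: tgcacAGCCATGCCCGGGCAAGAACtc

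The DDB2 match had 1 mismatch, those of FAS, MDM2 and AEN had 2 each, and those of SESN1, FDXR and GDF15 had 3 each. By GENCODE release 29 the MDM2 and SESN1 matches lay in introns of the longer transcripts, the DDB2, AEN and FDXR matches in exons with UTR annotation, and the FAS and GDF15 matches in other exons. A match is a description of the letters in a window, and binding was not measured. With cisplatin, DDB2, FAS, AEN, FDXR and GDF15 of these 7 genes were up-regulated, SESN1 was down-regulated and MDM2 was not called. Of the whole list, 19 of 31 tested genes rose with cisplatin and 5 fell, beside 29.2% and 30.6% of all genes. With vancomycin, AEN, FDXR and GDF15 were up-regulated and FAS was down-regulated, and with iohexol GDF15 alone of the 7 was called. Of all genes, 29.0% rose and 28.8% fell with vancomycin, and 11.2% and 9.77% with iohexol. Whether a match went with a change was not tested.

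Each drug was compared with the same 3 control samples. A gene was called when its adjusted p was under 0.05, and a called gene was a differentially expressed gene (DEG) when its log2 fold change was also above 1 or below -1. With iohexol, 31 of the 34 genes were tested and 5 were up-regulated, beside 11.2% of all 15657 genes tested. These were the phosphatase gene PPM1D, the cell cycle inhibitor CDKN1A, the kinase PLK3, the membrane protein gene PERP and the secreted factor GDF15. PLK2 and the death receptor TNFRSF10B were down-regulated, beside 9.77% of all genes. PERP and GDF15 were DEGs (4.02% of all genes were up-regulated DEGs). None of the 31 was a down-regulated DEG by edgeR or DESeq2, beside 1.25% of all genes by edgeR. At the unadjusted p none was one either, and 4 were lower with no limit on the fold change. The share of all genes at the unadjusted p was not computed. The other 24 genes were not called.

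With cisplatin, 19 of 31 genes tested were up-regulated, beside 29.2% of all 15876 genes, and 5 were down-regulated, beside 30.6%. The genes that rose belonged to all groups of the list, from the arrest genes CDKN1A, BTG2, PLK3 and GADD45A to the death receptors FAS and TNFRSF10A and the repair genes DDB2 and RRM2B. CDKN1A, PLK3, AEN and TP53I3 were up-regulated DEGs (7.62% of all genes), and CYFIP2 was the down-regulated DEG (8.72% of all genes). CCNG1, PLK2, TNFRSF10B and SESN1 also fell, and MDM2, MDM4, PHLDA3, XPC, POLK, TIGAR and FBXO22 were not called.

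With vancomycin, 12 of 32 genes tested were up-regulated, beside 29.0% of all 15819 genes, and 7 were down-regulated, beside 28.8%. CDKN1A, PLK3, PHLDA3, GDF15 and BLOC1S2 were up-regulated DEGs (10.8% of all genes). SPATA18 also met the DEG limit, but it passed the filter only through the vancomycin samples, so its call is not read as a result. Without it 11 of 31 genes were up-regulated and 5 were DEGs. MDM4, CCNG1, PLK2, FAS, TP53INP1, CYFIP2 and POLK fell by less than the DEG limit, beside 7.65% of all genes that were down-regulated DEGs. None of the 32 was a down-regulated DEG by edgeR or DESeq2, nor at the unadjusted p, where 7 were lower. The other 13 genes were not called.

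The median log2 fold change of the tested p53 target genes was 0.106 with iohexol, 0.285 with cisplatin and 0.072 with vancomycin, where all genes had medians of 0.012, 0.007 and -0.008. Scaling by library size only moved the median of all genes to 0.084, 0.226 and -0.085, and that of the p53 target genes to 0.178, 0.503 and -0.004, so that the sign with vancomycin depended on the scaling. Both vancomycin medians of the p53 target genes include SPATA18, which passed the filter only through the vancomycin samples. Without SPATA18 the middle value with TMM factors was -0.01, close to that of all genes, so the 0.072 is not read as a result. Among all called genes, the share that was higher was 53.4%, 48.9% and 50.2%, and 67.5%, 68.1% and 43.6% with library size only.

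**Figure D1:**
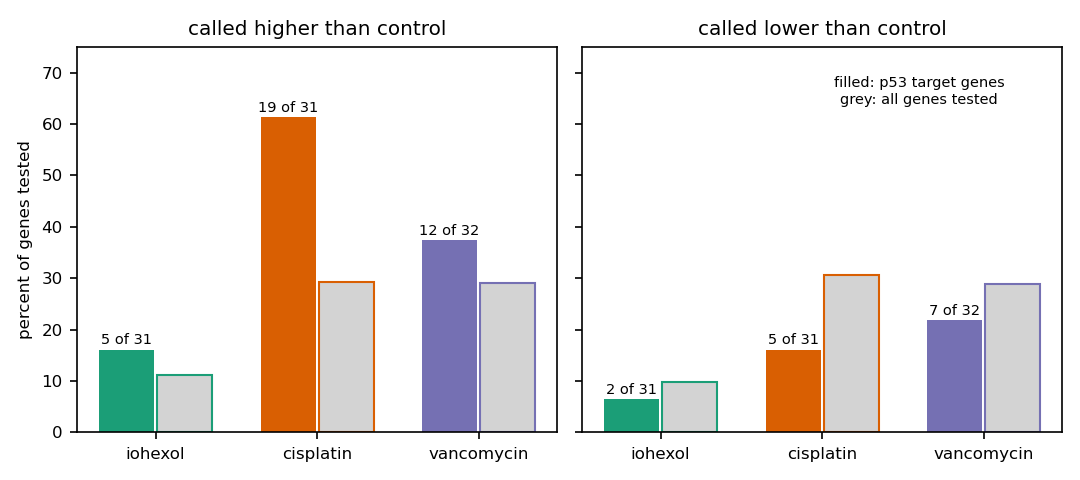
Percent of tested genes called higher (left) or lower (right) than control with each drug, for the p53 target genes (filled bars, with their counts) and for all genes tested (grey bars). With cisplatin 19 of 31 p53 target genes were higher, where the bar for all genes stood at 29.2%. The vancomycin count of genes called higher includes SPATA18, which passed the filter only through the vancomycin samples.

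**Figure D2:**
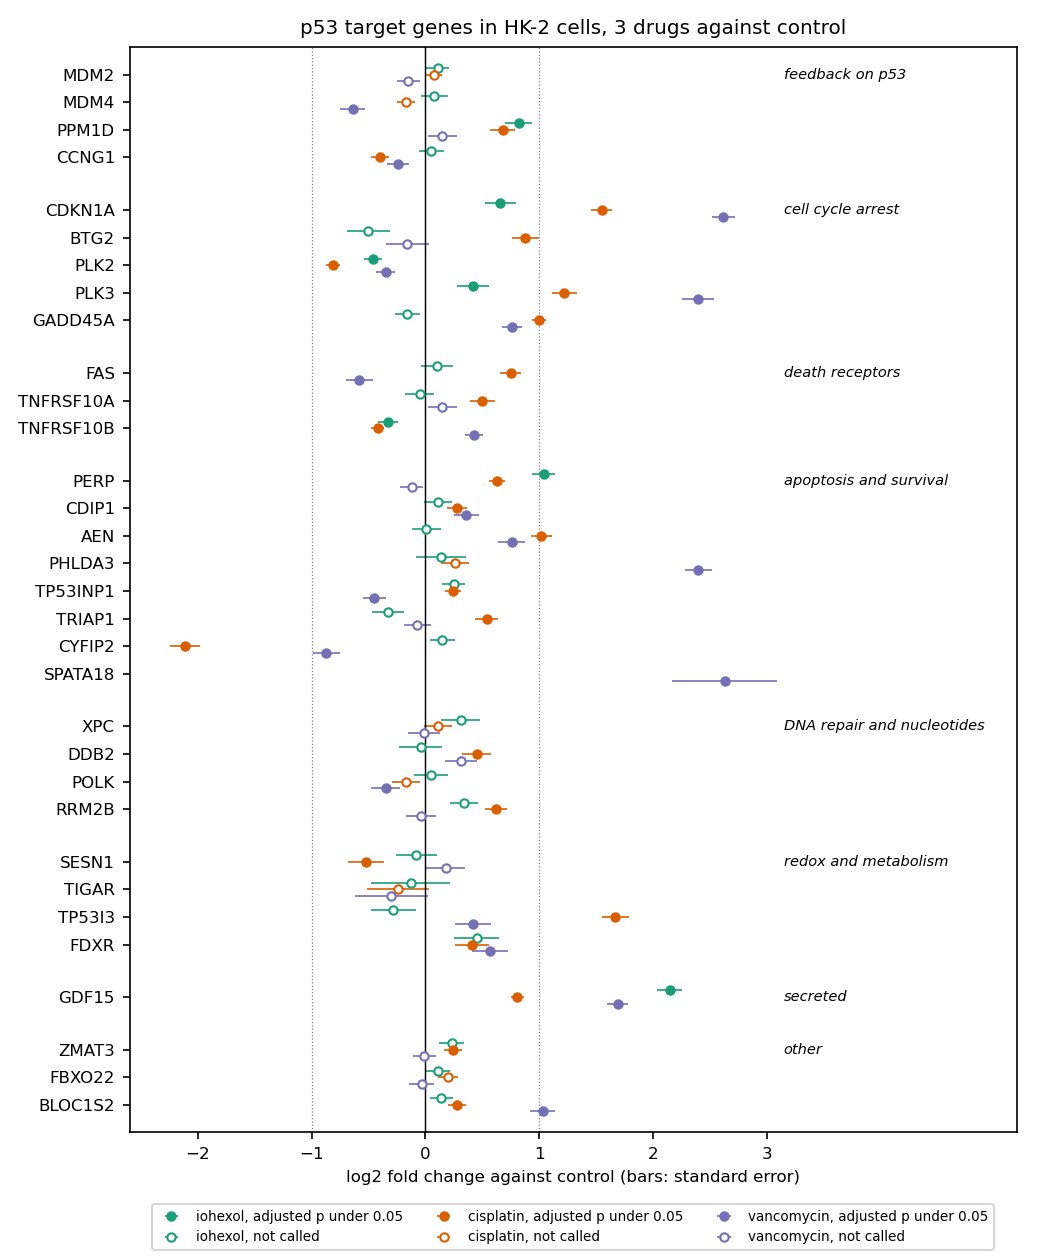
Log2 fold change against control (x axis) of every tested p53 target gene, ordered by role, with iohexol, cisplatin and vancomycin. Bars are standard errors, filled points had an adjusted p under 0.05, open points were not called, and dotted lines mark log2 fold changes of 1 and -1. SPATA18 has a point with vancomycin only, and it passed the filter only through the vancomycin samples. CDKN1A and PLK3 lay further right with each drug in the order iohexol, cisplatin, vancomycin, while the MDM2 points stayed between -0.15 and 0.11.

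The feedback genes were read first. MDM2, the ubiquitin ligase that degrades p53, was at 67.4, 64.2 and 63.1 CPM in the control samples, 65.6, 64.8 and 76.7 with iohexol, 70.6, 68.4 and 66.5 with cisplatin and 66.2, 61.9 and 52.5 with vancomycin. All 4 groups were close to each other. The log2 fold change was 0.11 with iohexol (95% interval -0.08 to 0.30), 0.08 with cisplatin (-0.06 to 0.21) and -0.15 with vancomycin (-0.35 to 0.05), and the adjusted p was 0.485, 0.351 and 0.211. The cisplatin value became 0.30 (adjusted p 0.00114) with library size only. Of the 31-base sequences of MDM2, 10.2% also occur in other genes, and its locus overlaps the CPM gene on the opposite strand by 8490 bases, so its counts could hold reads of that gene.

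MDM4, which inhibits p53 without a ligase activity of its own, was at 50.4 to 59.7 CPM in the control samples and at 34.4 to 37.7 with vancomycin, below every control sample (log2 fold change -0.64 ± 0.11 (SE), adjusted p 1.35e-05). With cisplatin it was not called (adjusted p 0.0751, and 0.0308 without control replicate 2). PPM1D, a phosphatase that switches off p53 and its kinases, spanned 15.4 to 18.7 CPM in control, 28.7 to 29.2 in iohexol, 24.9 to 29 in cisplatin and 18.6 to 19.4 in vancomycin samples. Both iohexol and cisplatin samples lay above all control samples, with log2 fold changes of 0.82 ± 0.12 (adjusted p 0.000588) and 0.68 ± 0.11 (4.4e-05), and the change with vancomycin was 0.15 (0.323). Cyclin G1, the product of CCNG1, recruits a phosphatase to MDM2. CCNG1 fell with cisplatin (-0.40 ± 0.08, adjusted p 0.000397, and 0.0607 with library size only). With vancomycin its adjusted p of 0.047 (log2 fold change -0.24) did not hold under DESeq2 (0.0654) or without control replicate 1 (0.113) or 2 (0.0937) or vancomycin replicate 1 (0.107) or 3 (0.24).

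The arrest genes CDKN1A and PLK3 rose with all 3 drugs. CDKN1A encodes p21, an inhibitor of cyclin-dependent kinases and a classic target of p53. It was at 38.2, 48.0 and 50.5 CPM in the control samples, 75.0, 80.5 and 57.8 with iohexol, 122, 139 and 139 with cisplatin and 276, 293 and 296 with vancomycin. The 4 groups did not overlap, and each drug group lay above the one before it in that order. Compared with the control group, CDKN1A was 1.58-fold higher with iohexol (log2 fold change 0.66 ± 0.14, adjusted p 0.00609), 2.92-fold with cisplatin (1.55 ± 0.09, 1.35e-10) and 6.14-fold with vancomycin (2.62 ± 0.10, 5.05e-16). In the direct comparisons of drugs, it was 0.91 ± 0.11 higher with cisplatin than with iohexol (adjusted p 1.07e-06) and 1.11 lower on the log2 scale with cisplatin than with vancomycin (log2 difference -1.11 ± 0.11, 2.67e-08). DINOL, a transcript on the opposite strand that overlaps CDKN1A by 951 bases, had 5 counts over all samples, where CDKN1A had 25438.

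PLK3, a polo-like kinase of the stress response, was at 11.8, 15.5 and 13.7 CPM in the control samples, 18.2, 19.5 and 16.6 with iohexol, 31.5, 30.6 and 33.9 with cisplatin and 59.9, 88.6 and 75.0 with vancomycin. Again the 4 groups did not overlap. The log2 fold change was 1.22 ± 0.11 with cisplatin (adjusted p 4.05e-08) and 2.40 ± 0.14 with vancomycin (3.48e-13). With iohexol it was 0.42 ± 0.14 at an adjusted p of 0.0491. That call was lost under DESeq2 (0.0929) and without control replicate 1 (0.164), 2 (0.0659) or 3 (0.127) or iohexol replicate 1 (0.117) or 2 (0.175).

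PLK2, a kinase of centriole duplication, had the highest level per length of the 34 genes in the control group, at 317 TPM (a share of all transcripts that corrects for gene length, 302 to 335). It fell with every drug, from a control range of 399 to 438 CPM to 284 to 314 in iohexol, 227 to 241 in cisplatin and 326 to 342 in vancomycin samples, with no overlap with the control group. The log2 fold changes were -0.46 ± 0.08 (adjusted p 0.00227), -0.81 ± 0.06 (2.97e-09) and -0.35 ± 0.08 (0.000996). GADD45A, a growth arrest and DNA damage gene, rose from 66.3 to 70.6 CPM in the control group to 132 to 139 with cisplatin and 111 to 132 with vancomycin. Its log2 fold change with cisplatin was 1.00 ± 0.06 (adjusted p 4.66e-10), just under the DEG limit, with vancomycin 0.76 ± 0.09 (1.82e-07) and with iohexol -0.16 (0.347). BTG2, an antiproliferative gene, was at 7.26 to 8.16 CPM in the control samples and at 13.6 to 14.6 with cisplatin, and no other group reached these levels. Its log2 fold change was 0.88 ± 0.12 with cisplatin (8.86e-06), -0.50 with iohexol (0.0885, and 0.0307 without iohexol replicate 2) and -0.16 with vancomycin (0.475).

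**Figure D3:**
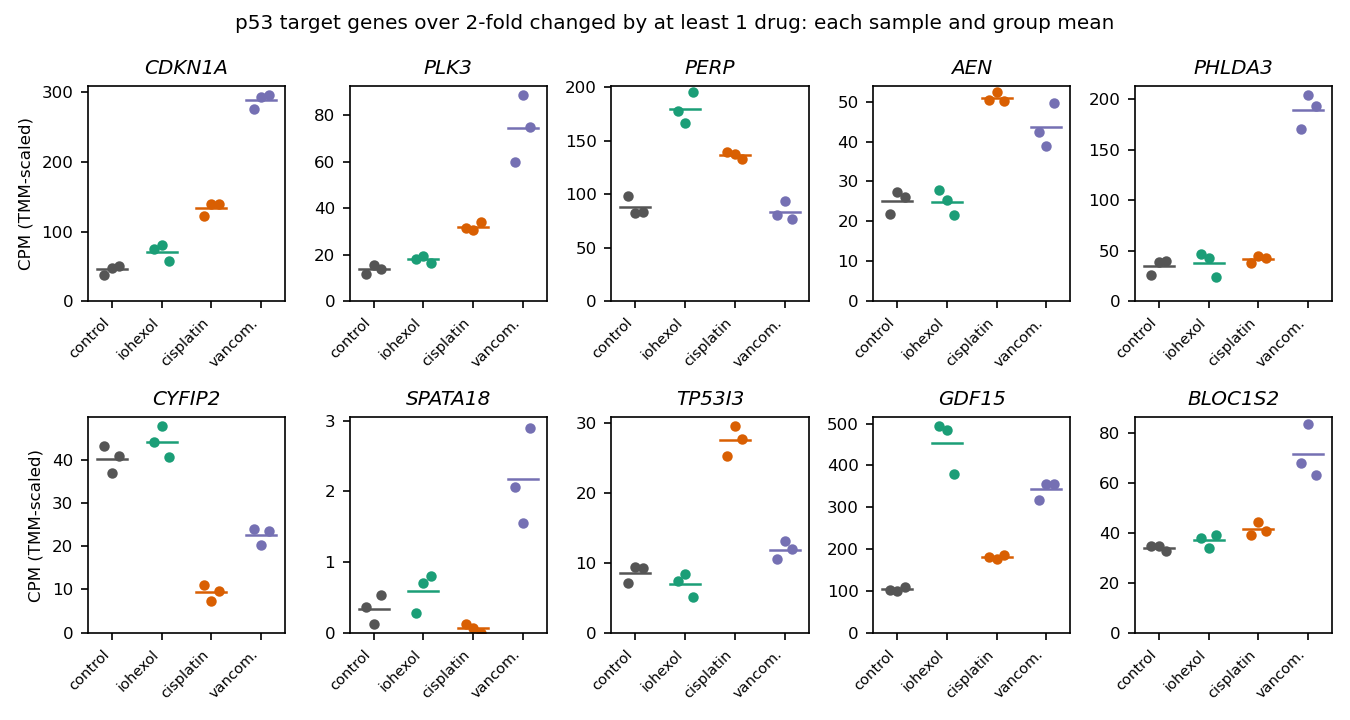
CPM of each sample (points) and group mean (lines) for the 10 p53 target genes that were DEGs with at least 1 drug, each panel with its own y axis from 0. Of these, SPATA18 passed the filter only through the vancomycin samples. CDKN1A and PLK3 rose over all 4 groups, PHLDA3, SPATA18 and BLOC1S2 stood out with vancomycin, TP53I3 and CYFIP2 with cisplatin, and PERP and GDF15 with iohexol.

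The death receptors moved in opposite directions. FAS, the receptor of FAS ligand, spanned 24.5 to 29.3 CPM in control, 24.3 to 33.9 in iohexol, 41.3 to 46.6 in cisplatin and 17.8 to 18.5 in vancomycin samples. The cisplatin samples lay above and the vancomycin samples below all control samples, with log2 fold changes of 0.75 ± 0.09 (adjusted p 2.65e-06) and -0.58 ± 0.12 (0.000202). The difference between cisplatin and vancomycin was 1.29 ± 0.12 (1.62e-08). TNFRSF10B, a receptor of TRAIL, showed the converse. It spanned 178 to 195 CPM in control, 137 to 155 in iohexol, 136 to 145 in cisplatin and 254 to 264 in vancomycin samples, none of which overlapped the control group.

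Its log2 fold change was -0.42 ± 0.06 with cisplatin (adjusted p 1.26e-05) and 0.43 ± 0.08 with vancomycin (0.000121), and the difference between cisplatin and vancomycin was -0.89 ± 0.07 (2.05e-09). With iohexol TNFRSF10B had a log2 fold change of -0.33 ± 0.09 (0.0201), a call lost without control replicate 2 (0.0848) or 3 (0.0702) and with library size only (0.0564). TNFRSF10A, the other TRAIL receptor with a death domain, rose from 15 to 17.3 CPM to 20.7 to 26.5 with cisplatin (0.50 ± 0.11, 0.00115) and was not called with iohexol or vancomycin. TNFRSF10C, a decoy receptor, had at most 7 counts in any sample and EDA2R, the ectodysplasin A2 receptor, had 0 counts in all 12 samples. Neither was tested, and 41.3% of the 31-base sequences of TNFRSF10C also occur in other genes.

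Among the genes of apoptosis and survival, PERP, a membrane protein of cell adhesion and apoptosis, rose most with iohexol. It was at 98.5, 82.4 and 83.7 CPM in the control samples, 178, 166 and 195 with iohexol, 139, 137 and 133 with cisplatin and 80.6, 93.7 and 76.8 with vancomycin. The iohexol and cisplatin samples lay above all others, and the vancomycin samples overlapped the control samples. The log2 fold change was 1.04 ± 0.10 with iohexol (adjusted p 2.68e-05), 0.63 ± 0.07 with cisplatin (1.19e-06) and -0.12 with vancomycin (0.324). PERP was 0.39 lower on the log2 scale with cisplatin than with iohexol (log2 difference -0.39 ± 0.09, 0.00114). Its iohexol value fell below the DEG limit without control replicate 2 (0.98) or 3 (0.99) or iohexol replicate 3 (0.98).

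AEN, a nuclease of apoptosis, was at 21.9, 27.4 and 26.1 CPM in the control samples, 27.9, 25.3 and 21.6 with iohexol, 50.5, 52.4 and 50.1 with cisplatin and 42.5, 39.0 and 49.7 with vancomycin. The iohexol samples overlapped the control group, and the other groups lay above it. The log2 fold change was 1.02 ± 0.09 with cisplatin (adjusted p 3.57e-08) and 0.76 ± 0.12 with vancomycin (9.33e-06). Without control replicate 1 the cisplatin value was 0.93.

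PHLDA3, a repressor of AKT signalling, was at 26.3, 38.3 and 39.7 CPM in the control samples, 46.2, 42.4 and 24.4 with iohexol, 37.6, 45 and 42.8 with cisplatin and 170, 204 and 193 with vancomycin. The vancomycin samples stood far above the overlapping other 3 groups. PHLDA3 was 5.27-fold higher with vancomycin than in the control group (log2 fold change 2.40 ± 0.12, adjusted p 4.63e-14), and the difference between cisplatin and vancomycin was -2.18 ± 0.17 (9.32e-10). With cisplatin the log2 fold change was 0.26 ± 0.12 (adjusted p 0.0708, and 0.0223 without control replicate 3), and with iohexol it was 0.14 ± 0.22 (0.704, and 0.0444 without iohexol replicate 3). Of its 31-base sequences 13.9% also occur in other genes, most of them in an overlapping noncoding gene that had 0 counts.

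SPATA18, a gene of mitochondrial quality control, had few reads. Its counts were 5, 2 and 8 in the control samples, 4, 11 and 12 with iohexol, 2, 1 and 0 with cisplatin and 33, 23 and 47 with vancomycin. The vancomycin samples lay above all others. They reached 2.06, 1.55 and 2.90 CPM. SPATA18 did not pass the filter on low counts in the fits of iohexol and cisplatin against control and passed it elsewhere only through the vancomycin samples, so that it had to differ there. Its counts are therefore given as a description, and its calls in the fits that it entered are not read as results.

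CYFIP2, a partner of the WAVE actin regulators that p53 can induce, was at 43.3, 36.9 and 40.8 CPM in the control samples, 44.1, 47.8 and 40.7 with iohexol, 11.0, 7.32 and 9.63 with cisplatin and 24.1, 20.2 and 23.6 with vancomycin. The iohexol samples overlapped the control group, and the cisplatin samples were the lowest. The log2 fold change was -2.11 ± 0.13 with cisplatin (adjusted p 2.11e-10), -0.87 ± 0.12 with vancomycin (7.32e-07) and 0.15 ± 0.11 with iohexol (0.369). The difference between cisplatin and vancomycin was -1.28 ± 0.14 (7.03e-08).

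The remaining genes of this group changed less. CDIP1, a pro-apoptotic p53 target, had log2 fold changes of 0.28 ± 0.09 with cisplatin (adjusted p 0.0081) and 0.36 ± 0.11 with vancomycin (0.00557). TP53INP1, a nuclear p53 cofactor and autophagy protein, rose with cisplatin (0.24 ± 0.07, 0.0091, and 0.063 without cisplatin replicate 2) and fell with vancomycin (-0.45 ± 0.10, 0.000478), and the difference between cisplatin and vancomycin was 0.65 ± 0.09 (2.35e-06). Its locus overlaps NDUFAF6 on the opposite strand by 23440 bases, and NDUFAF6 had 2998 counts over all samples, where TP53INP1 had 10269. TRIAP1, a mitochondrial survival protein, rose with cisplatin from 17.8 to 22.7 CPM in the control samples to 28.5 to 31 (0.54 ± 0.10, 0.000271). With iohexol it was at 14.4 to 17.8 CPM and was not called (adjusted p 0.115, and 0.0362 with all 12 samples in 1 fit).

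Among the repair genes, DDB2 and RRM2B rose with cisplatin. DDB2, which recognises ultraviolet damage for nucleotide excision repair, was at 10.0 to 13.4 CPM in the control samples and 15 to 17.1 with cisplatin (log2 fold change 0.45 ± 0.13, adjusted p 0.00503). RRM2B, a ribonucleotide reductase subunit that supplies nucleotides for repair, was at 22.3 to 29 CPM and 37.9 to 40.5 (0.62 ± 0.10, 3.74e-05). Neither cisplatin group overlapped the control group. DDB2 had a log2 fold change of 0.31 with vancomycin (0.0647, and 0.0295 without control replicate 3), and RRM2B one of 0.34 with iohexol (0.066, and 0.0392 without control replicate 1). XPC, the damage sensor of the same repair pathway, had adjusted p-values of 0.237, 0.443 and 0.94 with iohexol, cisplatin and vancomycin. POLK, a DNA polymerase that copies past lesions, fell with vancomycin (-0.35 ± 0.13, 0.0209), a call lost without control replicate 1 (0.133) or vancomycin replicate 2 (0.0673) or 3 (0.0737). XPC and POLK overlap LSM3 and COL4A3BP, genes on the opposite strand with higher counts, by 426 and 383 bases.

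Among the genes of redox control and metabolism, TP53I3, a quinone oxidoreductase, was at 7.18, 9.41 and 9.21 CPM in the control samples, 7.39, 8.44 and 5.08 with iohexol, 25.3, 29.6 and 27.8 with cisplatin and 10.6, 13.2 and 12.0 with vancomycin. The cisplatin samples stood well above the others, the vancomycin samples just above the control group, and the iohexol samples overlapped it. TP53I3 was 3.19-fold higher with cisplatin (log2 fold change 1.67 ± 0.12, adjusted p 2.63e-09), and its difference between cisplatin and vancomycin was 1.21 ± 0.15 (6.33e-07). With vancomycin the log2 fold change was 0.42 ± 0.16 (0.024), a call lost under DESeq2 (0.0742) and without control replicate 1 (0.107) or vancomycin replicate 2 (0.0932) or 3 (0.0536). The TP53I3 locus overlaps FAM228B on the opposite strand by 8429 bases, and FAM228B had 467 counts over all samples, where TP53I3 had 2630.

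FDXR, the mitochondrial ferredoxin reductase, rose with cisplatin (0.41 ± 0.15, adjusted p 0.0247) and vancomycin (0.57 ± 0.16, 0.00407) from 6.24 to 9.04 CPM in the control samples. The cisplatin call was lost without control replicate 1 (0.109) or cisplatin replicate 1 (0.0985), and with iohexol the adjusted p was 0.131 (0.014 without iohexol replicate 3). SESN1, an antioxidant sestrin that restrains mTORC1, fell with cisplatin from 7.47 to 10.5 CPM to 5.32 to 6.71 (-0.52 ± 0.16, 0.0117, and 0.0696 without cisplatin replicate 3). TIGAR, a phosphatase that lowers glycolysis, had 20 to 48 counts per sample and was not called, and 49.4% of its 31-base sequences also occur in other genes.

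GDF15, a secreted stress cytokine of the TGF-beta family, was the p53 target gene with the largest log2 fold change with iohexol. It was at 101, 98.8 and 110 CPM in the control samples, 495, 486 and 380 with iohexol, 180, 177 and 186 with cisplatin and 318, 356 and 356 with vancomycin. The 4 groups did not overlap, and their order was control, cisplatin, vancomycin, iohexol. GDF15 was 4.45-fold higher with iohexol (log2 fold change 2.15 ± 0.11, adjusted p 2.07e-07), 1.75-fold with cisplatin (0.81 ± 0.06, 7.51e-09) and 3.22-fold with vancomycin (1.69 ± 0.09, 1.09e-13). The differences from iohexol were -1.32 ± 0.09 for cisplatin (3.13e-10) and -0.40 ± 0.09 for vancomycin (0.000856).

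BLOC1S2, a subunit of complexes that position lysosomes, was at 34.7, 34.8 and 32.7 CPM in the control samples, 38.0, 33.8 and 39.2 with iohexol, 39.1, 44.6 and 40.9 with cisplatin and 68.1, 83.8 and 63.3 with vancomycin. The vancomycin samples lay above all others. The log2 fold change was 1.03 ± 0.11 with vancomycin (adjusted p 2.33e-08), which was 0.99 without control replicate 3 and 0.91 without vancomycin replicate 2, and 0.28 ± 0.08 with cisplatin (0.0078, and 0.0661 without cisplatin replicate 2). ZMAT3, an RNA-binding zinc finger protein, had a log2 fold change of 0.24 ± 0.08 with cisplatin (0.0149), a call lost without control replicate 3 (0.0615) or cisplatin replicate 1 (0.116). FBXO22, a ubiquitin ligase adaptor, was not called with any drug (adjusted p 0.53, 0.0687 and 0.851, and 0.0409 with cisplatin without control replicate 1).

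Levels per length ranged widely over the 34 genes in the control group. After PLK2 came GDF15 at 182 TPM (171 to 198), TNFRSF10B at 133 (126 to 141) and GADD45A at 121 (117 to 127), of which TNFRSF10B and GADD45A overlapped. MDM4 (16.5 to 19.8) and MDM2 (17.4 to 18.6) overlapped as well. FDXR (8.13), SESN1 (6.40), TIGAR (2.12) and SPATA18 (0.253) were the lowest of the genes tested with at least 1 drug. With vancomycin, mean levels were 516 TPM for GDF15 and 297 TPM for CDKN1A, compared with 182 and 54.8 TPM in the control group.

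The drugs were then compared with each other in 1 fit of all 12 samples. With cisplatin 11 of 32 p53 target genes were higher than with iohexol, beside 26.0% of all 17073 genes, and 7 were lower, beside 27.9%. The 11 were CDKN1A, BTG2, PLK3, GADD45A, FAS, TNFRSF10A, AEN, TRIAP1, DDB2, RRM2B and TP53I3, and the 7 were CCNG1, PLK2, PERP, CYFIP2, SPATA18, SESN1 and GDF15. With vancomycin 13 genes were higher than with iohexol, beside 29.0%, and 9 were lower, beside 27.6%. SPATA18 is among the 7 and the 13 but entered this fit only through the vancomycin samples. Its counts were 4, 11 and 12 with iohexol and 2, 1 and 0 with cisplatin, and its calls are not read as results. Without SPATA18 the 7 and the 13 were 6 and 12. The 9 were MDM4, PPM1D, FAS, PERP, TP53INP1, CYFIP2, POLK, RRM2B and GDF15.

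Cisplatin against vancomycin gave 10 genes higher with cisplatin, beside 30.0% of all genes, and 10 lower, beside 34.7%. MDM4, PPM1D, BTG2, FAS, TNFRSF10A, PERP, TP53INP1, TRIAP1, RRM2B and TP53I3 were higher with cisplatin, and CDKN1A, PLK2, PLK3, TNFRSF10B, PHLDA3, CYFIP2, SPATA18, SESN1, GDF15 and BLOC1S2 were lower, 9 of them without SPATA18, to which the same limit applies. BTG2 differed by 1.00 ± 0.17 (adjusted p 4.24e-05) and RRM2B by 0.62 ± 0.11 (5.58e-05). GADD45A, AEN and DDB2 did not pass this test, with differences of 0.20 (95% interval 0.02 to 0.38), 0.22 (0.00 to 0.44) and 0.10 (-0.20 to 0.39). With library size only, 18 genes were higher with cisplatin than with vancomycin and 14 were lower with vancomycin than with iohexol, where the share of higher genes among all called genes moved from 46.4% to 66.4% and from 51.3% to 34.4%. For cisplatin against iohexol that share moved from 48.2% to 58.8%.

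Among the genes that the viral oncogenes act through, UBE3A fell with vancomycin (log2 fold change -0.55 ± 0.10, adjusted p 7.08e-05), and RB1, the retinoblastoma gene, fell with cisplatin (-0.55 ± 0.08, 1.66e-05) and vancomycin (-0.60 ± 0.11, 4.78e-05). UBE3A with iohexol and cisplatin, and RB1 with iohexol, overlapped the control group.

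Of 15 tested regulators and partners of p53, 0 rose and 2 fell with iohexol, 2 rose and 5 fell with cisplatin and 4 rose and 7 fell with vancomycin, by edgeR at an adjusted p under 0.05. Of all genes tested, 11.2% rose and 9.77% fell with iohexol, 29.2% and 30.6% with cisplatin and 29.0% and 28.8% with vancomycin, so that the shares that fell with iohexol and cisplatin were near those of all genes. With iohexol 2 were higher at the unadjusted p, and DESeq2 called 0 higher. HIPK2, a kinase that phosphorylates p53, was at 427 to 464 CPM in the control samples and 126 to 152 with cisplatin (-1.68 ± 0.07, 1.41e-12). It was also below every control sample with iohexol (283 to 332 CPM) and vancomycin (269 to 401 CPM). COP1, a ubiquitin ligase of p53, fell with cisplatin (-0.83 ± 0.08, 7.66e-08), and the checkpoint kinase gene CHEK2 rose (0.74 ± 0.09, 8.81e-07). CDKN2A, which encodes the RB pathway inhibitor p16 and the MDM2 inhibitor ARF, was at 226 to 271 CPM in the control group and at 506 to 644 with vancomycin (1.16 ± 0.10, 3.72e-10). Its iohexol samples, at 140 to 201 CPM, lay below every control sample, and its cisplatin samples overlapped the control group. The damage kinases ATR (-0.68 ± 0.10, 4.3e-06) and CHEK1 (-0.63 ± 0.10, 1.06e-05) fell with vancomycin.

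A second list held 25 other p53 targets. With iohexol 3 of 22 tested genes rose and 5 fell, with cisplatin 8 of 21 rose and 9 fell and with vancomycin 12 of 22 rose and 4 fell. The iohexol share that rose was near the 11.2% of all genes, while the 5 that fell stood beside 9.77%. The cisplatin shares stood beside 29.2% and 30.6% and the vancomycin shares beside 29.0% and 28.8%. PMAIP1, which encodes the apoptosis activator NOXA, rose from 52.5 to 64.1 CPM in the control samples to 240 to 307 with vancomycin (2.14 ± 0.10, adjusted p 3.01e-14), with 0.80 ± 0.08 with cisplatin (1.39e-07). BBC3, which encodes PUMA, rose with vancomycin (1.44 ± 0.15, 1.75e-08) and fell with cisplatin (-0.49 ± 0.15, 0.0121). Its cisplatin samples, at 6.78 to 8.51 CPM, overlapped the control samples, at 8.27 to 11.7 CPM. The membrane rupture gene NINJ1 (1.13 ± 0.10, 5.14e-10) and SUSD6 (1.06 ± 0.11, 1.03e-08) rose with vancomycin, and the early gene IER5 rose with cisplatin (1.57 ± 0.08, 1.1e-11) and vancomycin (1.31 ± 0.11, 3.18e-10). LIF, a cytokine of the interleukin-6 family, fell with every drug, and its 184 to 245 CPM in the control samples compared with 93.1 to 117 CPM for iohexol. Its log2 fold changes were -1.01 ± 0.12 for iohexol (0.000116), -0.83 ± 0.08 for cisplatin (1.19e-07) and -0.42 ± 0.10 for vancomycin (0.000672).

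p21 lowers the transcription of cell cycle genes through the DREAM repressor complex. Of 18 such genes, 7 fell and 0 rose with iohexol, 6 fell and 5 rose with cisplatin and 17 fell and 0 rose with vancomycin, with median log2 fold changes of -0.27, -0.04 and -0.77. The cisplatin counts were near the 30.6% lower and 29.2% higher of all genes. Of all genes, 9.77% fell and 11.2% rose with iohexol, and 28.8% fell and 29.0% rose with vancomycin. At edgeR's unadjusted p 1 gene was higher with iohexol and 0 with vancomycin, and DESeq2 called 0 higher with either drug. TOP2A, a topoisomerase of dividing cells, was at 563 to 661 CPM in the control samples and 239 to 268 with vancomycin (-1.31 ± 0.09, adjusted p 1.24e-11), while cisplatin gave -0.07 ± 0.06 (0.306). CDK1, the mitotic kinase, fell with vancomycin (-1.15 ± 0.10, 6.88e-10) and rose with cisplatin (0.45 ± 0.06, 1.04e-05). The proliferation marker MKI67 (-1.19 ± 0.11, 2.29e-09), CCNA2 (-1.18 ± 0.09, 2.04e-10), KIF20A (-1.11 ± 0.09, 4.92e-10) and AURKA (-0.85 ± 0.09, 9.38e-09) fell with vancomycin. In the direct test all 18 genes were higher with cisplatin than with vancomycin, beside 30.0% of all genes. Whether p21 or the DREAM complex had a part in these changes was not tested.

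Several p53 target genes, GDF15 among them, are also induced through the stress factor ATF4, so 8 genes of that response were read beside them. With iohexol 3 rose and 0 fell, with cisplatin 4 rose and 3 fell and with vancomycin 5 rose and 0 fell. Of all genes, 11.2% rose and 9.77% fell with iohexol, 29.2% rose and 30.6% fell with cisplatin and 29.0% rose and 28.8% fell with vancomycin. With iohexol and vancomycin 0 fell by edgeR's unadjusted p or by DESeq2 as well. DDIT3, which encodes the stress factor CHOP, rose with iohexol (1.26 ± 0.14, adjusted p 6.9e-05), cisplatin (0.64 ± 0.11, 0.00012) and vancomycin (1.34 ± 0.13, 2.79e-09). PPP1R15A, a stress-induced phosphatase subunit, rose with cisplatin from 41 to 57 CPM in the control samples to 137 to 150 (adjusted p 2.8e-10) and with vancomycin to 233 to 271 (log2 fold change 2.30 ± 0.11, 1.95e-14). ATF3, a stress-induced transcription factor, rose with the same drugs (1.62 ± 0.08, 1.34e-11, and 1.79 ± 0.11, 7.3e-13). DDIT4 (-1.99 ± 0.08, 6.71e-13), TRIB3 (-0.81 ± 0.06, 7.54e-09) and ATF4 (-0.24 ± 0.06, 0.00336) fell with cisplatin, while with vancomycin TRIB3 (0.38 ± 0.09, 0.000615) and ATF4 (0.59 ± 0.09, 8.32e-06) rose. The part of this response in the level of GDF15 was not tested.

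**Figure D4:**
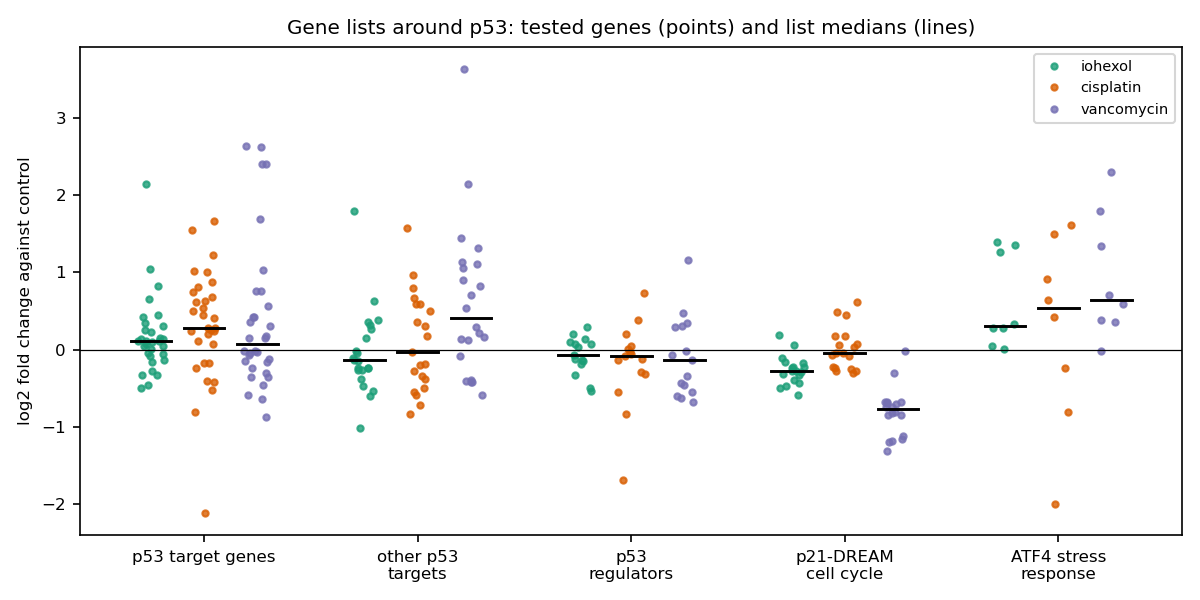
Log2 fold change against control (y axis) of each tested gene (points, spread sideways for display) and the median (black lines) of the p53 target genes and the 4 other lists, with iohexol, cisplatin and vancomycin. With vancomycin the p21-DREAM genes lay around a median of -0.77, and the median of the p53 target genes was 0.072. The latter includes SPATA18, which passed the filter only through the vancomycin samples, and the middle value without SPATA18 was -0.01.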

How the data were processed

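The authors deposited unnormalised counts of reads per gene for 58735 genes in 12 samples. Libraries were made from poly(A) RNA with an NEBNext Ultra kit, per the labels. The submitters' processing notes name CASAVA 1.8, fastp, HISAT2 2.0.5, featureCounts 1.5.0-p3 and DESeq2 1.20.0, while the strand setting and annotation release were not given in the sources used here, so reads of genes that overlap on opposite strands could not be told apart. Gene identifiers and positions were on GRCh38.

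From the deposited counts, each drug group was compared with the control group by the quasi-likelihood test of edgeR 4.0.16 (R 4.3.3) with TMM normalisation, in a separate fit of 6 samples. Genes entered after filterByExpr (minimum count 10, minimum total 15), with Benjamini-Hochberg adjustment over every gene tested. Pairs of drugs were compared as contrasts of 1 fit over the 12 samples. The standard error (SE) is the log2 fold change divided by the square root of F, and 95% intervals are normal intervals around the log2 fold change. CPM used the TMM factors of all samples, and TPM used the gene lengths of the table. All intervals and the 3-count floor cover counting error or the spread between samples only, and no molecular identifiers are described. Steps were tested on simulated counts.

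All 34 genes are accounted for, with values in every sample for those that were DEGs with at least 1 drug. UBE3A, RB1 and CDKN2A were always given, and at most 6 genes of each other list were named, those with the smallest p. The genes and lists were chosen with earlier results of these data known, and no list was tested as a set. Some genes of the original lists are not reported here and were left out of the lists' counts. Promoter windows came from RefSeq on GRCh38.p14, and exons and shared 31-base sequences from GENCODE release 29.

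The alternatives tried were DESeq2 1.42.0, RLE factors, library size only, no filter on low counts, another set of samples in the fit, the replicate number as a block, each sample left out in turn and, for promoters, other mismatch limits and a window of 150 bases. Leaving out control replicate 1 and iohexol replicate 3 together was added after seeing the data. Figures were drawn with matplotlib 3.10.9.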

Additional observations from a re-analysis of the deposited data

How the results depend on the processing

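Over all alternatives, whether a gene was called against control, and the direction of a called gene, stayed the same in 1096 of 1159 values. A change of sign in a gene that was called in neither fit was not counted. In 40 a call was lost, in 23 one was gained, and in 0 did a called direction turn. Calls held under every alternative for 5 of 7 genes with iohexol (not PLK3 and TNFRSF10B), 18 of 24 with cisplatin and 16 of 19 with vancomycin. The vancomycin numbers include SPATA18. Where the cause is not the construction of the alternative itself, the cause was not tested.

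With library size only, 1 gene in place of 2 was down-regulated with iohexol, 3 in place of 5 with cisplatin, 7 in place of 4 were up-regulated DEGs with cisplatin, 14 in place of 9 were lower with vancomycin than with iohexol and 18 in place of 10 were higher with cisplatin than with vancomycin. With all 12 samples in 1 fit, 4 genes were down-regulated with iohexol and 2 were down-regulated DEGs with cisplatin in place of 1. Leaving out control replicate 1 and iohexol replicate 3 together, an alternative chosen after seeing the data, gave 8 up-regulated genes with iohexol in place of 5, with CYFIP2 (adjusted p 0.0244), RRM2B (0.00417) and FDXR (0.0338) added. Each sample left out in turn gave 1 to 3 down-regulated genes with iohexol (1 without control replicate 2 or 3) and 1 to 2 up-regulated DEGs (1 without control replicate 2 or 3 or iohexol replicate 3), and 4 to 7 up-regulated genes with iohexol.

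Samples with the same replicate number in the labels showed no strong shared deviation (correlations between -0.184 and 0.103 over the pairs). With 3 samples per group this cannot tell whether they were handled together. With a replicate block in the fits, the p53 target genes called higher and lower were 4 and 1 with iohexol, 20 and 5 with cisplatin and 13 and 7 with vancomycin.

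With 2 or 4 mismatches allowed in the p53 response element, 4 or 9 of 26 genes had a match in place of 7, beside 0.359% and 4.92% of all genes, and in a window of 150 bases 6 genes had one. A longer window was not run, since the windows hold 300 bases. At this depth TNFRSF10C had at most 7 counts in a sample and SPATA18 at most 12 outside the vancomycin group, so that neither could be compared between the control, iohexol and cisplatin groups.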
